A study of Mus musculus with 60 samples.

Results

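The genes described here build and run the mitotic spindle and the kinetochore. They are a list of 60 named genes, each read from the probe set that names it alone and has the highest mean over the 60 arrays of the study. Such a probe set was found for 58 of the 60, Sgol1 through its current symbol Sgo1, out of 18194 genes measured in this way. The levels of Hjurp and Ccnb1 are not analysed here. Kif15 did not pass the filter on low values, since it was above the array median on 0 arrays, and its levels (from 5.15 to 7.75 on the log2 scale) are given for completeness only. The 57 genes left were tested among 12600 genes, and all counts below are out of these 57 unless another number is given.

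The samples are 25 lymphomas of early onset (32 to 76 days of age, median 65), 25 lymphomas of late onset (253 to 649 days, median 398) and 10 normal tissues, measured on Affymetrix expression arrays. Both lymphoma groups came from Em-myc transgenic mice, in which the enhancer of the immunoglobulin heavy chain drives Myc in B lineage cells. The normal tissues came from wild-type mice without the transgene. Young mice (38 to 73 days) gave 6 lymph nodes, and old mice (304 to 438 days) gave 3 lymph nodes and 1 spleen. The series sets early against late tumours to find what distinguishes them. A tumour or tissue is a mixture of cells, so fewer dividing cells and less mRNA per dividing cell cannot be told apart in these data. No label says which arrays share a mouse, litter or day, so p-values speak only of the spread among these samples, which may be technical in part.

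When a cell divides, the kinetochore forms on centromeric chromatin that carries the histone variant Cenpa. Its inner layer binds the centromere, and its outer layer grips spindle microtubules through the Ndc80 complex. Kinetochores without attached microtubules feed the spindle checkpoint, which holds back the ubiquitin ligase APC/C and its activator Cdc20. Once the checkpoint is satisfied, APC/C marks cyclin B and securin for destruction, separase cuts cohesin and the chromatids part. Most of these genes are transcribed late in the cell cycle, so their mRNA is widely read as a sign of how many cells divide.

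Levels below are log2(intensity + 15.7), where 15.7 is the pseudocount, and a change of 1 on this scale is a doubling. For a group, the lowest, the median and the highest array are given in that order. A value after ± is the standard error of a log2 change. A gene was called where limma's p after Benjamini-Hochberg adjustment over all 27094 probe sets tested was under 0.05.

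Normal and tumour arrays differed in more than mitosis. The mean level of 6 measured B lineage markers lay between 9.04 and 12.33 in early lymphomas, between 8.33 and 12.48 in late ones and between 11.38 and 12.14 in normal tissue. The mean of 8 T cell markers lay between 11.05 and 11.45 in 9 of the 10 normal tissues and at 10.57 in the spleen. In lymphomas it lay between 5.89 and 8.75 (early) and between 6.48 and 11.26 (late). The 8 markers were all lower in both lymphoma groups (median log2 change -3.54 in early), and so were 6 and 5 of 7 markers of stroma and endothelium. The part of cell composition in the differences from normal tissue was not tested.

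Promoters of mitotic genes are known for CCAAT boxes, bound by the factor NF-Y, and for the cell cycle homology region (CHR), through which repressor and activator complexes restrict transcription to late cell cycle phases. RefSeq windows of build GRCm38.p6 were held for 52 of the 60 genes, and the 250 bases before the start were searched on both strands for CCAAT, for the CHR letters TTTGAA or TTCGAA and for CACGTG, the E-box that Myc binds. Where a gene had several windows (4 of the 52) the one of lowest coordinate was used. The 52 include Hjurp, Ccnb1 and Kif15, whose levels were not tested. CCAAT was found in 34 of the 52 windows (65.4%), against 34.2% of the 27025 genes in the table. At least 2 CCAAT stood in 21 windows (40.4%, against 10.4%). CHR letters stood in 20 (38.5%, against 17.4%) and both motifs in 16 (30.8%, against 6.14%). The E-box stood in 4 (7.69%, against 5.93%). The shares differed between roles as a description: the 5 windows of cyclins, Cdk1 and APC/C partners all held CCAAT and 4 held CHR letters, while the 5 of the outer kinetochore and the 4 of kinases and the passenger complex held no CHR letters. A match describes letters and is not a binding site, and a missing match says only that these letters are not in this window. The windows below belong to the genes with the most late tumours under the early range (Cdk1, Plk1), a large rise in tumours (Ube2c), a normal level under the array median (Cenpi), the densest motifs (Top2a), a cyclin (Ccnb2) and the gene that did not rise (Pttg1). Each runs 5′ to 3′ in the direction of the gene and ends at the base before the start, with CCAAT and CHR letters of either strand in capitals.
Cdk1 (chr10:69352913-69353162, minus strand): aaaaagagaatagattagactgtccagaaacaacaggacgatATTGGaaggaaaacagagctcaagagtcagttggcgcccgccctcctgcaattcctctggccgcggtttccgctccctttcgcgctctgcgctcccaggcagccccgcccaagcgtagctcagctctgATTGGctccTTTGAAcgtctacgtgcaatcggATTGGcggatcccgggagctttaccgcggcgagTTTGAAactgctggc
Ccnb2 (chr9:70421555-70421804, minus strand): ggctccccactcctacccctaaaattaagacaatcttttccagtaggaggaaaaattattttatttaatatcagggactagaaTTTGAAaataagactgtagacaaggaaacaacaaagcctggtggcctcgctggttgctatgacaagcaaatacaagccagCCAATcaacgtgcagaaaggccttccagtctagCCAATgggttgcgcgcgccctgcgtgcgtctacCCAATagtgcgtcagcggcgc
Ube2c (chr2:164769679-164769928, plus strand): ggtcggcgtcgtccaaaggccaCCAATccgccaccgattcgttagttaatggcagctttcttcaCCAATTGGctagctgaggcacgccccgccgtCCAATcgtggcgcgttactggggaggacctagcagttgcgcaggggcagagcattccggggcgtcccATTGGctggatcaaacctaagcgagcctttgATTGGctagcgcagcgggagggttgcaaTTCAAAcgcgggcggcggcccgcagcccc
Top2a (chr11:99024190-99024439, minus strand): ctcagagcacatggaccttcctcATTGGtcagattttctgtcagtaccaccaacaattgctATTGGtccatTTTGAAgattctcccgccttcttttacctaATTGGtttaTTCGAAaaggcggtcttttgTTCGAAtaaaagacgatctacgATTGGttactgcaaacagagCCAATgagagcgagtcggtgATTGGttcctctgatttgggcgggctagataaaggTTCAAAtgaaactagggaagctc
Plk1 (chr7:122159185-122159434, plus strand): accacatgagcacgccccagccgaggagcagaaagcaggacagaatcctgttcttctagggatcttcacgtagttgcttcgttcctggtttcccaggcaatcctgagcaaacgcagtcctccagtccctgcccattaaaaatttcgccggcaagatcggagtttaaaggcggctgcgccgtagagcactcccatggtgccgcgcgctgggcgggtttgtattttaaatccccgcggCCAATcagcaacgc
Cenpi (chrX:134307834-134308083, plus strand): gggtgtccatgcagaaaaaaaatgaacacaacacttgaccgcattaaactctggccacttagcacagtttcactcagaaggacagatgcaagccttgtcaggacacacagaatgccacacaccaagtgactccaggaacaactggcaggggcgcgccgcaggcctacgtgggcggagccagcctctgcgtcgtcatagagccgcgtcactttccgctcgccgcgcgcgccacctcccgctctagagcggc
Pttg1 (chr11:43425982-43426231, minus strand): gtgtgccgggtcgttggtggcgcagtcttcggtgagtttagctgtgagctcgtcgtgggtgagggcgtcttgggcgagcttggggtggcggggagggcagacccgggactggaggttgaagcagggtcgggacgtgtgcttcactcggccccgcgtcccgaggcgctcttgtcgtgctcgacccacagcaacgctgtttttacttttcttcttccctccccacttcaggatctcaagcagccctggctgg
Cdk1 has CHR letters starting at -71 and -15 and CCAAT, all on the reverse strand as ATTGG, at -208, -80 and -48. Ube2c has 6 CCAAT, of which the pair at -186 and -183 overlaps on opposite strands. Top2a has 6 CCAAT and 4 CHR matches. Plk1 has 1 CCAAT, at -14, and Cenpi and Pttg1 have no match.

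Early lymphomas expressed the mitotic genes far above normal tissue. Of the 57 genes 56 were called higher, with a median log2 change of 2.24, while the median of all 12600 genes was -0.10 and 30.1% of them were called higher and 38.8% lower. Called changes ran from 0.88 for Cenpq to 3.89 for Cenpi, and Pttg1 alone was not called (-0.07). Cenph, Cenpi, Cenpp, Oip5 and Cdc25c were above the array median on 0 normal arrays, so these 5 passed the filter through the tumours alone and had to differ. The separation was nearly complete: for 51 of the 57 genes (89.5%) each of the 25 early lymphomas exceeded the highest normal tissue, against 12.2% of all genes. The exceptions were Cenpc1, Cenpk, Cenpl, Cdc25c and Foxm1, where 24 early lymphomas did, and Pttg1, where 5 did.

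Late lymphomas also expressed them above normal tissue, by less. Again 56 genes were called higher, with a median of 1.77 (all genes -0.05, 24.7% called higher and 30% lower), and Pttg1 was called lower, where the level fell by 0.44. The 56 include the 5 genes that passed the filter through the tumours alone. All 25 late lymphomas lay above every normal tissue for 4 genes (7.02%, against 3.75% of all genes): Cenpm, Bub1b, Aurkb and Racgap1. For 34 genes 24 late lymphomas did, and for 55 genes at least 20 did. Both comparisons use the same 10 normal arrays and are not independent of each other. Normal arrays had the higher median intensity (183.0 to 197.6, against 122.3 to 205.7 in lymphomas), and scaling moves both comparisons. With quantile normalization, and with each array centred on its median, the median of all genes became 0.07 and 0.24 in early and 0.08 and 0.23 in late lymphomas. The share of higher among called genes became 53.3% and 66.2% (from 43.7%) and 55.8% and 69.1% (from 45.2%). The count of 56 higher members was the same under both scalings.

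**Figure D1:**
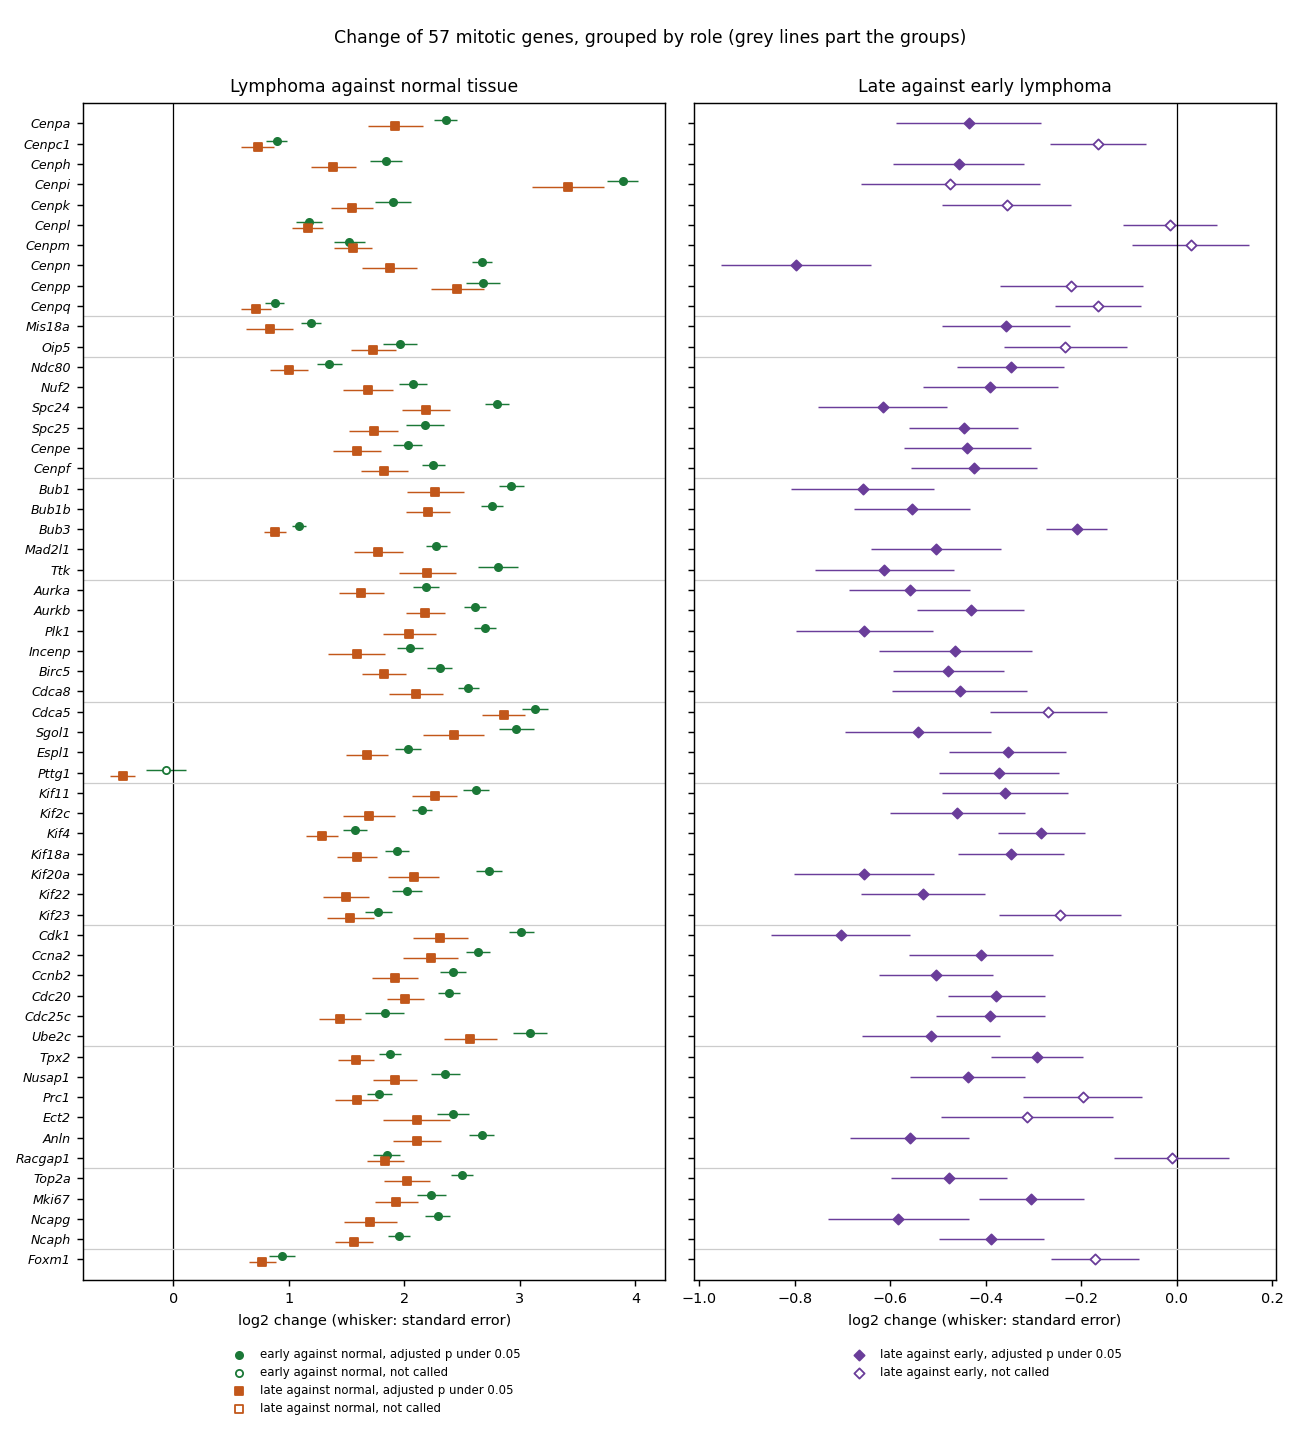
Log2 change with standard error of the 57 mitotic genes, in early (circles) and late (squares) lymphomas against normal tissue on the left and in late against early lymphomas on the right. Filled symbols passed an adjusted p of 0.05. Pttg1 stands near 0 on the left, and 43 filled symbols stand below 0 on the right.

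Between the lymphoma groups most of these genes were lower in the late tumours. Of the 57 genes 43 were called lower in late lymphomas and 14 were not called, with a median log2 change of -0.42 against 0.01 for all genes, of which 12.7% were called lower and 11.1% higher. The change was below 0 for 56 genes. Cenpn fell by 0.80 ± 0.16 (adjusted p = 0.000676), Cdk1 by 0.70 ± 0.15 (adjusted p = 0.00105) and Bub1 by 0.66 ± 0.15 (adjusted p = 0.00194). These differences are small beside those from normal tissue. Centring on the array median gave 42 lower and moved the share of higher calls among all genes from 46.7% to 35%.

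The count changed with RNA ratios as covariates and with a few tumours left out. Gapdh control probe sets at both ends of the transcript give a log2 ratio, 3-prime over 5-prime, that reads RNA quality. It averaged -0.383 ± 0.0497 over early and -0.433 ± 0.072 over late lymphomas (SD, permutation p = 0.00501, adjusted p = 0.01 over 2 ratios). The beta-actin ratio went the other way, at 0.202 ± 0.0633 in early and 0.23 ± 0.0624 in late lymphomas (SD, permutation p = 0.124). With the Gapdh and beta-actin ratios as covariates 8 genes were called lower (median -0.29), when 3.67% of all genes were, and with the Gapdh ratio alone 7 were. With the beta-actin ratio alone 36 were, when 11.2% of all genes were. Plasma cell markers moved the other way, with 6 of 7 higher in late lymphomas (median 1.24), and 5 of 6 B lineage markers were lower (median -0.82). T cell markers were higher in 4 of 8 cases (median 0.62), macrophage and monocyte markers in 3 of 7 (0.45) and germinal centre markers in 2 of 5 (0.54). Plasma cell markers were also called higher in old than in young normal tissue, 7 of 7 (median 1.13), when 1.08% of all genes were. Their onset contrast in tumours minus the age contrast in normal tissue had a median of 0.04 (from -0.393 to 1.305), with 0 called. This contrast called 0.0317% of all genes higher and 0% lower, so a count of 0 says little about 7 markers. The part of mouse age in these markers was not tested. Late lymphoma 130 stood apart, with the highest T cell level (11.26) and the lowest B lineage level (8.33) of the late tumours, and without it 44 genes were called lower. The mean plasma cell level was 8.09, 8.79 and 9.72 in early lymphomas and 7.95, 9.81 and 13.35 in late ones. Without late lymphomas 120, 125, 129, 137 and 138, at 12.68 to 13.35, 19 genes were called lower (median -0.23, with 5.22% of all genes called lower). Of these 5 tumours, 138, 129, 120 and 137 had the lowest Gapdh ratios of all lymphomas (-0.609 to -0.51). The fit with ratios and the fit without these tumours are therefore not separate checks. Called in the full set and in both of those fits were Cenpn, Spc24, Bub1, Bub1b, Plk1, Kif20a, Cdk1 and Anln, 8 genes. The part of RNA quality and of cell content in the difference was not tested beyond these fits.

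**Figure D2:**
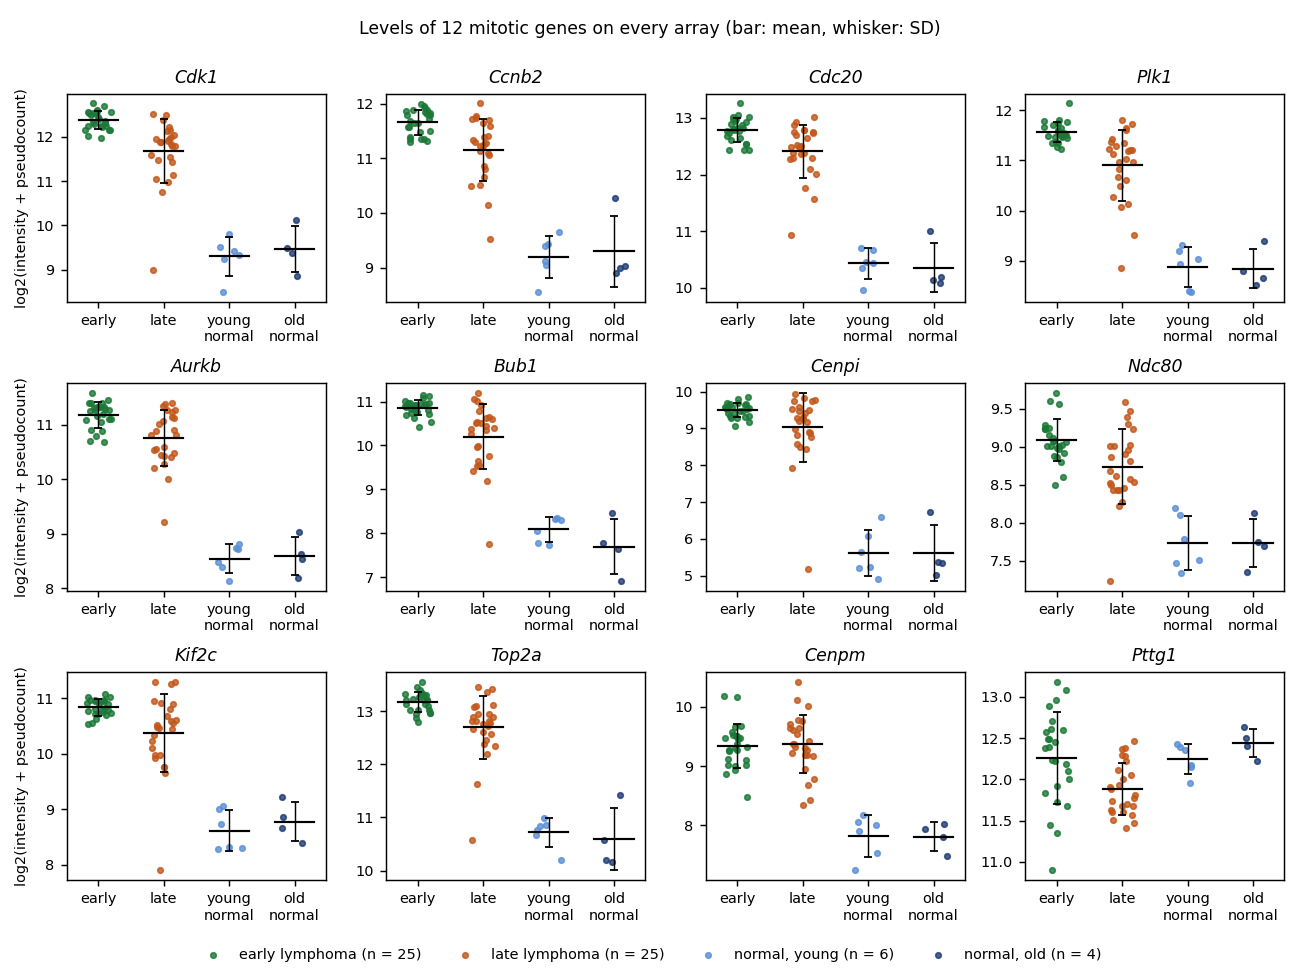
Log2 level of 12 mitotic genes on every array, by early lymphoma, late lymphoma, young and old normal tissue, with the group mean (bar) and SD (whisker). The early lymphomas form a tight band above normal tissue for all but Pttg1, and the late lymphomas reach from that band down to 1 tumour near the normal level in most panels.

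Inner kinetochore genes rose in both tumour groups, 10 of 10 in each, and 3 of the 10 were lower in late tumours. Cenph, Cenpi and Cenpp among the 10 passed the filter through the tumours alone and had to rise. Cenpi is a subunit of the constitutive centromere network. Its level was 4.91, 5.36 and 6.74 in normal tissue, 9.07, 9.52 and 9.86 in early lymphomas and 5.17, 9.25 and 9.93 in late lymphomas. Every early lymphoma and 24 late ones exceeded the highest normal tissue. In normal tissue Cenpi was above the array median on 0 of 10 arrays, so it passed the filter through the tumours and the size of its rise depends on the pseudocount. The rise was 3.89 ± 0.14 in early tumours and 3.41 ± 0.31 in late tumours, and with a pseudocount 4 times larger it was 2.98 and 2.57. The change between the tumour groups, -0.47 ± 0.19, was not called (adjusted p = 0.0601). It was called with the larger pseudocount (-0.40) and in 6 of the 50 fits that left out 1 lymphoma, those without late lymphoma 111, 112, 116, 118, 135 or 137. Cenpa, the histone that marks the centromere, stood at 9.45, 9.80 and 10.66 in normal tissue, at 11.61, 12.23 and 12.61 in early and at 9.48, 11.88 and 12.96 in late lymphomas. It rose by 2.36 ± 0.10 in early tumours and fell by 0.44 ± 0.15 from early to late (adjusted p = 0.0338), a call lost without late lymphoma 120, 125, 129 or 133. Cenpn, which reads Cenpa nucleosomes, had the largest fall between the groups. Its level was 8.46, 8.73 and 9.00 in normal tissue, 10.77, 11.45 and 11.75 in early and 8.77, 10.79 and 11.59 in late lymphomas, and 11 late tumours lay below every early one. Cenph was the third gene called lower (-0.46). Not called between the groups were Cenpk (-0.36), Cenpp (-0.22), Cenpc1 (-0.16), Cenpq (-0.16), Cenpl (-0.01) and Cenpm (0.03), all subunits of the same centromere network. Cenpm stood at 7.24, 7.92 and 8.18 in normal tissue, at 8.47, 9.32 and 10.19 in early and at 8.34, 9.37 and 10.43 in late lymphomas. Cenpl stood at 7.37, 7.60 and 8.36 in normal tissue, at 8.26, 8.80 and 9.40 in early and at 7.85, 8.94 and 9.61 in late lymphomas. Cenpp stood at 5.66, 6.97 and 7.37 in normal tissue, at 8.64, 9.56 and 10.05 in early and at 7.28, 9.47 and 10.58 in late lymphomas. In these 3 genes the highest late tumour passed the highest early one, as it also did in Cenpi, Cenpa, Cenpq and Cenpc1. Cenpk stood at 7.57, 8.04 and 8.99 in normal tissue, at 8.37, 10.12 and 10.60 in early and at 7.94, 9.78 and 10.29 in late lymphomas. Cenpq stood at 9.44, 9.78 and 9.98 in normal tissue, at 10.04, 10.70 and 10.99 in early and at 9.75, 10.54 and 11.29 in late lymphomas. Cenpc1 stood at 9.20, 9.49 and 9.83 in normal tissue, at 9.77, 10.34 and 10.89 in early and at 9.33, 10.28 and 11.07 in late lymphomas, and its late tumours overlapped normal tissue the most of the layer, with 19 of 25 above it. The lowest rises over normal tissue in this layer were those of Cenpq (0.88 in early, 0.72 in late) and Cenpc1 (0.90 and 0.73). Of the factors that load Cenpa, Mis18a stood at 9.69, 10.09 and 10.41 in normal tissue, at 10.73, 11.28 and 11.73 in early and at 9.18, 11.01 and 11.80 in late lymphomas, and Oip5 at 5.89, 6.59 and 7.28 in normal tissue, at 8.04, 8.55 and 9.18 in early and at 6.69, 8.29 and 9.05 in late lymphomas. Mis18a rose by 1.19 ± 0.08 in early tumours and was lower in late ones (-0.36, adjusted p = 0.0465), and Oip5 rose by 1.97 ± 0.15 and was not called between the groups (-0.23). Oip5 also passed the filter through the tumours alone and had to rise.

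Outer kinetochore genes rose in all 6 cases and were lower in late tumours in all 6. Ndc80, whose complex binds microtubules, stood at 7.34, 7.72 and 8.19 in normal tissue, at 8.50, 9.06 and 9.71 in early and at 7.23, 8.68 and 9.59 in late lymphomas. It rose by 1.35 ± 0.11 in early tumours, the least of the 6, and was lower in late tumours (-0.35 ± 0.11, adjusted p = 0.0225). Of its partners, Spc24 rose by 2.80 ± 0.11, Spc25 by 2.18 ± 0.16 and Nuf2 by 2.08 ± 0.12. Spc24 stood at 7.63, 8.12 and 8.62 in normal tissue, at 10.31, 10.97 and 11.29 in early and at 8.43, 10.50 and 11.30 in late lymphomas. It also showed the largest fall of this layer between the groups (-0.62 ± 0.13, adjusted p = 0.00147). The kinesin Cenpe, which moves chromosomes toward the spindle equator, stood at 7.53, 7.93 and 8.95 in normal tissue, at 9.52, 10.12 and 10.97 in early and at 8.05, 9.85 and 10.5 in late lymphomas. Cenpf, a large protein of the outer plate, stood at 8.76, 9.11 and 9.77, at 10.74, 11.36 and 11.85 and at 9.00, 10.98 and 11.61 in the same order. For each of the 6 genes the early lymphomas did not overlap normal tissue, and 8 to 11 late lymphomas lay below every early one.

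The spindle checkpoint showed the same order of groups in all 5 genes. Bub1, a checkpoint kinase, stood at 6.91, 7.92 and 8.45 in normal tissue, at 10.42, 10.91 and 11.14 in early and at 7.74, 10.40 and 11.21 in late lymphomas. It rose by 2.93 ± 0.11 in early and 2.27 ± 0.25 in late tumours. Bub1b, the BubR1 protein that inhibits Cdc20, stood at 8.54, 9.06 and 9.51 in normal tissue, at 11.43, 11.82 and 12.42 in early and at 9.69, 11.28 and 12.07 in late lymphomas. It lay above every normal tissue in all 50 tumours and below every early tumour in 16 late ones. Mad2l1, the Mad2 protein that is activated at unattached kinetochores, stood at 9.24, 9.77 and 10.10, at 11.57, 11.97 and 12.56 and at 9.51, 11.72 and 12.17. Ttk, the kinase Mps1 that starts the signal, stood at 5.56, 7.56 and 8.22, at 9.41, 10.31 and 10.95 and at 7.88, 9.76 and 10.47, and its fall between the groups was 0.61 ± 0.15 (adjusted p = 0.00286). Bub3, the scaffold that brings Bub1 and BubR1 to kinetochores, was an abundant transcript of small amplitude. Its level was 11.60, 11.79 and 12.12 in normal tissue, 12.60, 12.88 and 13.32 in early and 11.83, 12.78 and 12.98 in late lymphomas. It rose by 1.09 ± 0.06 in early tumours and 0.88 ± 0.09 in late ones, and was lower in late ones by 0.21 ± 0.06 (log2 change -0.21, adjusted p = 0.016). With the mean of all its probe sets the rise in late tumours was 0.19 and not called.

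Mitotic kinases and the chromosomal passenger complex were called higher in both tumour groups and lower in late than in early tumours, 6 of 6 in each comparison. Plk1, the polo kinase, stood at 8.37, 8.87 and 9.39 in normal tissue, at 11.22, 11.53 and 12.13 in early and at 8.86, 11.13 and 11.79 in late lymphomas. In 17 late lymphomas Plk1 lay below every early one, and it fell by 0.65 ± 0.14 (adjusted p = 0.00147). Aurka, the kinase of spindle poles, stood at 8.13, 8.65 and 9.26 in normal tissue, at 10.46, 10.85 and 12.02 in early and at 8.63, 10.40 and 11.05 in late lymphomas, with the highest early value in lymphoma 6. Aurkb, the kinase of the passenger complex, stood at 8.13, 8.58 and 9.04, at 10.69, 11.26 and 11.59 and at 9.21, 10.81 and 11.40, so that all 50 tumours lay above every normal tissue. Its partners Birc5 (survivin), Cdca8 (borealin) and Incenp rose by 2.31 ± 0.11, 2.55 ± 0.09 and 2.05 ± 0.11 in early tumours. Birc5 stood at 9.25, 9.87 and 10.87 in normal tissue, at 11.62, 12.20 and 12.63 in early and at 9.93, 11.81 and 12.61 in late lymphomas.

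Among the genes of cohesion and separation, 3 of 4 rose in both tumour groups and Pttg1 did not. Cdca5 (sororin), which protects cohesin, stood at 8.19, 8.62 and 9.48 in normal tissue, at 10.92, 11.85 and 12.24 in early and at 9.46, 11.61 and 12.23 in late lymphomas. It rose by 3.13 ± 0.11 in early and 2.86 ± 0.19 in late tumours and was not called between them (-0.27, adjusted p = 0.105). Sgol1 (shugoshin), which guards centromeric cohesin, stood at 6.68, 7.87 and 8.77 in normal tissue, at 10.16, 10.66 and 11.16 in early and at 7.67, 10.32 and 10.96 in late lymphomas, so that 10 late tumours lay below every early one. It rose by 2.97 ± 0.15 and was lower in late tumours (-0.54). Espl1 (separase), the protease that cuts cohesin, stood at 8.42, 8.75 and 9.38, at 10.30, 10.85 and 11.44 and at 8.97, 10.58 and 11.31. Its call between the groups (-0.35, adjusted p = 0.032) was lost without late lymphoma 137 or 138. Pttg1 encodes securin, the inhibitor of separase, and behaved unlike its partner. Its level was 11.96, 12.37 and 12.64 in normal tissue, 10.90, 12.38 and 13.19 in early and 11.41, 11.81 and 12.47 in late lymphomas. Early lymphomas lay on both sides of normal tissue, 5 above and 7 below all of it, while 16 late lymphomas lay below every normal tissue and 0 above. The change was -0.07 ± 0.17 in early tumours (adjusted p = 0.756), and it turned to 0.27 after centring and to 0.01 against young normal tissue alone. In late tumours it was -0.44 ± 0.11 (adjusted p = 0.000868), not called after centring. The chosen probe set has the suffix that Affymetrix gives to probes matching several transcripts. The 2 other Pttg1 probe sets gave -0.02 and -0.58 in early and -0.39 and -0.69 in late tumours.

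Of the mitotic kinesins 7 of 7 tested rose in both tumour groups and 6 of 7 were lower in late tumours. Kif11, the Eg5 motor that separates spindle poles, stood at 8.12, 8.76 and 9.29 in normal tissue, at 10.52, 11.45 and 11.79 in early and at 8.87, 11.12 and 11.88 in late lymphomas. It rose by 2.62 ± 0.11 in early tumours. Its call between the groups (-0.36 ± 0.13, adjusted p = 0.0424) was lost in 25 of the 50 fits that left out 1 lymphoma. Kif20a, needed for cytokinesis, showed the largest rise and the largest fall of this class. Its level was 7.13, 7.41 and 8.16 in normal tissue, 9.75, 10.17 and 10.79 in early and 7.36, 9.66 and 10.64 in late lymphomas, with 14 late ones below every early one. It rose by 2.73 ± 0.11 and fell by 0.66 ± 0.15 from early to late (adjusted p = 0.00174). Kif2c (MCAK), which takes microtubules apart at kinetochores, stood at 8.28, 8.69 and 9.21, at 10.53, 10.82 and 11.07 and at 7.90, 10.48 and 11.30, so that its lowest late value lay under every normal tissue. Kif22, the chromosome-arm motor Kid, stood at 9.63, 10.36 and 11.21, at 11.65, 12.40 and 12.79 and at 10.32, 11.72 and 12.77. Kif4, a chromosome-bound motor, and Kif18a, which dampens chromosome movement, rose by 1.57 ± 0.10 and 1.94 ± 0.11. Kif23, of the central spindle, stood at 8.01, 8.63 and 9.34 in normal tissue, at 9.84, 10.54 and 10.92 in early and at 8.52, 10.43 and 10.96 in late lymphomas. It rose by 1.78 ± 0.12 and was not called between the groups (-0.24).

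Cdk1, cyclins and APC/C partners rose in 6 of 6 cases and were lower in late tumours in 6 of 6. Cdc25c among them passed the filter through the tumours alone and had to rise. Cdk1, the kinase that drives entry into mitosis, stood at 8.49, 9.40 and 10.12 in normal tissue, at 11.98, 12.36 and 12.75 in early and at 8.98, 11.89 and 12.51 in late lymphomas. It rose by 3.01 ± 0.11 in early (8.07-fold) and 2.31 ± 0.24 in late tumours (4.96-fold), and 17 late tumours lay below every early one. Ccnb2, a B-type cyclin, stood at 8.55, 9.08 and 10.27, at 11.30, 11.69 and 12.00 and at 9.52, 11.26 and 12.00, with 15 late tumours below every early one. Ccna2, the A-type cyclin of S phase and early mitosis, rose by 2.64 ± 0.10 in early tumours and was lower in late ones (-0.41, adjusted p = 0.0434). Cdc20 stood at 9.96, 10.40 and 11.00 in normal tissue, at 12.43, 12.80 and 13.26 in early and at 10.93, 12.49 and 13.02 in late lymphomas, and had the smallest fall of this class (-0.38 ± 0.10). Ube2c, the ubiquitin-conjugating enzyme of APC/C, stood at 8.91, 9.49 and 10.95, at 11.93, 12.62 and 13.24 and at 9.99, 12.29 and 13.03. It rose by 3.09 ± 0.15 in early tumours, and the highest normal value was that of the spleen. Cdc25c, a phosphatase that activates Cdk1, was above the array median on 25 early, 22 late and 0 normal arrays and rose by 1.83 ± 0.17 in early tumours.

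Genes of spindle assembly and cytokinesis rose in 6 of 6 cases, and 3 of 6 were lower in late tumours. Anln (anillin), of the contractile ring, stood at 7.08, 7.81 and 8.68 in normal tissue, at 10.23, 10.56 and 11.04 in early and at 8.22, 10.10 and 10.83 in late lymphomas, with 15 late tumours below every early one. It rose by 2.67 ± 0.11 in early tumours and fell by 0.56 ± 0.12 from early to late (adjusted p = 0.0017). Nusap1 and Tpx2, which organise spindle microtubules, rose by 2.36 ± 0.13 and 1.87 ± 0.09 and were lower in late tumours (-0.44 and -0.29). Not called between the groups were Ect2 (-0.31), which activates RhoA at the division plane, Prc1 (-0.20), which bundles central spindle microtubules, and Racgap1 (-0.01), the partner of Ect2 and Kif23. Ect2 stood at 7.68, 8.45 and 9.53 in normal tissue, at 10.33, 10.93 and 11.46 in early and at 7.70, 10.91 and 11.52 in late lymphomas, and Prc1 at 8.80, 9.24 and 9.84 in normal tissue, at 10.24, 11.02 and 11.59 in early and at 9.24, 10.87 and 12.05 in late lymphomas. Both reached as high in late as in early tumours. Racgap1 stood at 9.31, 9.56 and 9.87 in normal tissue, at 10.62, 11.53 and 11.90 in early and at 10.00, 11.53 and 12.43 in late lymphomas, so that both tumour groups had the same median.

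The condensin and chromosome genes were higher in both tumour groups and lower in late tumours in 4 of 4 cases. Top2a, which untangles sister DNA, stood at 10.16, 10.72 and 11.43 in normal tissue, at 12.79, 13.21 and 13.56 in early and at 10.59, 12.81 and 13.46 in late lymphomas. Mki67, the proliferation marker Ki-67, stood at 10.49, 11.02 and 12.48, at 12.60, 13.40 and 13.72 and at 11.27, 13.11 and 13.75. Its call between the groups (-0.30, adjusted p = 0.0403) was lost in 17 of the 50 fits that left out 1 lymphoma. Ncapg, a condensin subunit, stood at 7.33, 7.79 and 8.51 in normal tissue, at 9.64, 10.18 and 10.60 in early and at 7.36, 9.64 and 10.53 in late lymphomas, with 13 late tumours below every early one. Ncapg and its partner Ncaph rose by 2.29 ± 0.11 and 1.95 ± 0.10 in early tumours and were lower in late ones (-0.58 and -0.39). Foxm1 is a transcription factor that activates many of these genes. Its level was 8.96, 9.40 and 9.69 in normal tissue, 9.57, 10.31 and 10.86 in early and 9.45, 10.12 and 10.63 in late lymphomas. It rose by 0.94 ± 0.11 in early and 0.77 ± 0.12 in late tumours and was not called between them (-0.17, adjusted p = 0.176). With the mean of all its probe sets it was called lower in late tumours (-0.32).

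Late tumours differed widely from each other. The median level over the 57 genes was 10.63, 10.98 and 11.12 in early lymphomas, 8.87, 10.78 and 11.30 in late lymphomas and 8.38, 8.75 and 9.35 in normal tissue, and 10 late tumours lay below the lowest early one. Of the 1425 late tumour-by-gene values 465 lay below every early lymphoma. The mean was 18.6 of the 57 genes per late tumour, where a mean of 9.64% of all genes lay below. The 465 values were unevenly spread: 4 late tumours (111, 112, 118 and 130) had no such gene, 6 had 1 to 9, 7 had 10 to 29 and 8 had 30 or more. In the 4 tumours 2.03% to 8.98% of all genes lay below. The 8 were late lymphoma 114 with 30 genes, 125 with 32, 131 with 37, 129 and 138 with 39 each, 120 with 42, 133 with 46 and 137 with 55. In these 8 tumours 8.28% to 18.5% of all genes lay below. Of these, 120, 125, 129, 137 and 138 are the 5 with the highest plasma cell level, while 114, 131 and 133 stood at 9.70, 10.13 and 10.31 on that list. At the other end, 12 late tumours had at least 1 gene above every early lymphoma, with up to 5 genes in late lymphoma 118. The mean was 1.28 of the 57 genes per late tumour, where a mean of 9.21% of all genes lay above. The count of genes with at least 10 late tumours below every early one was 25 of 57 (43.9%, against 4.87% of all genes).

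**Figure D3:**
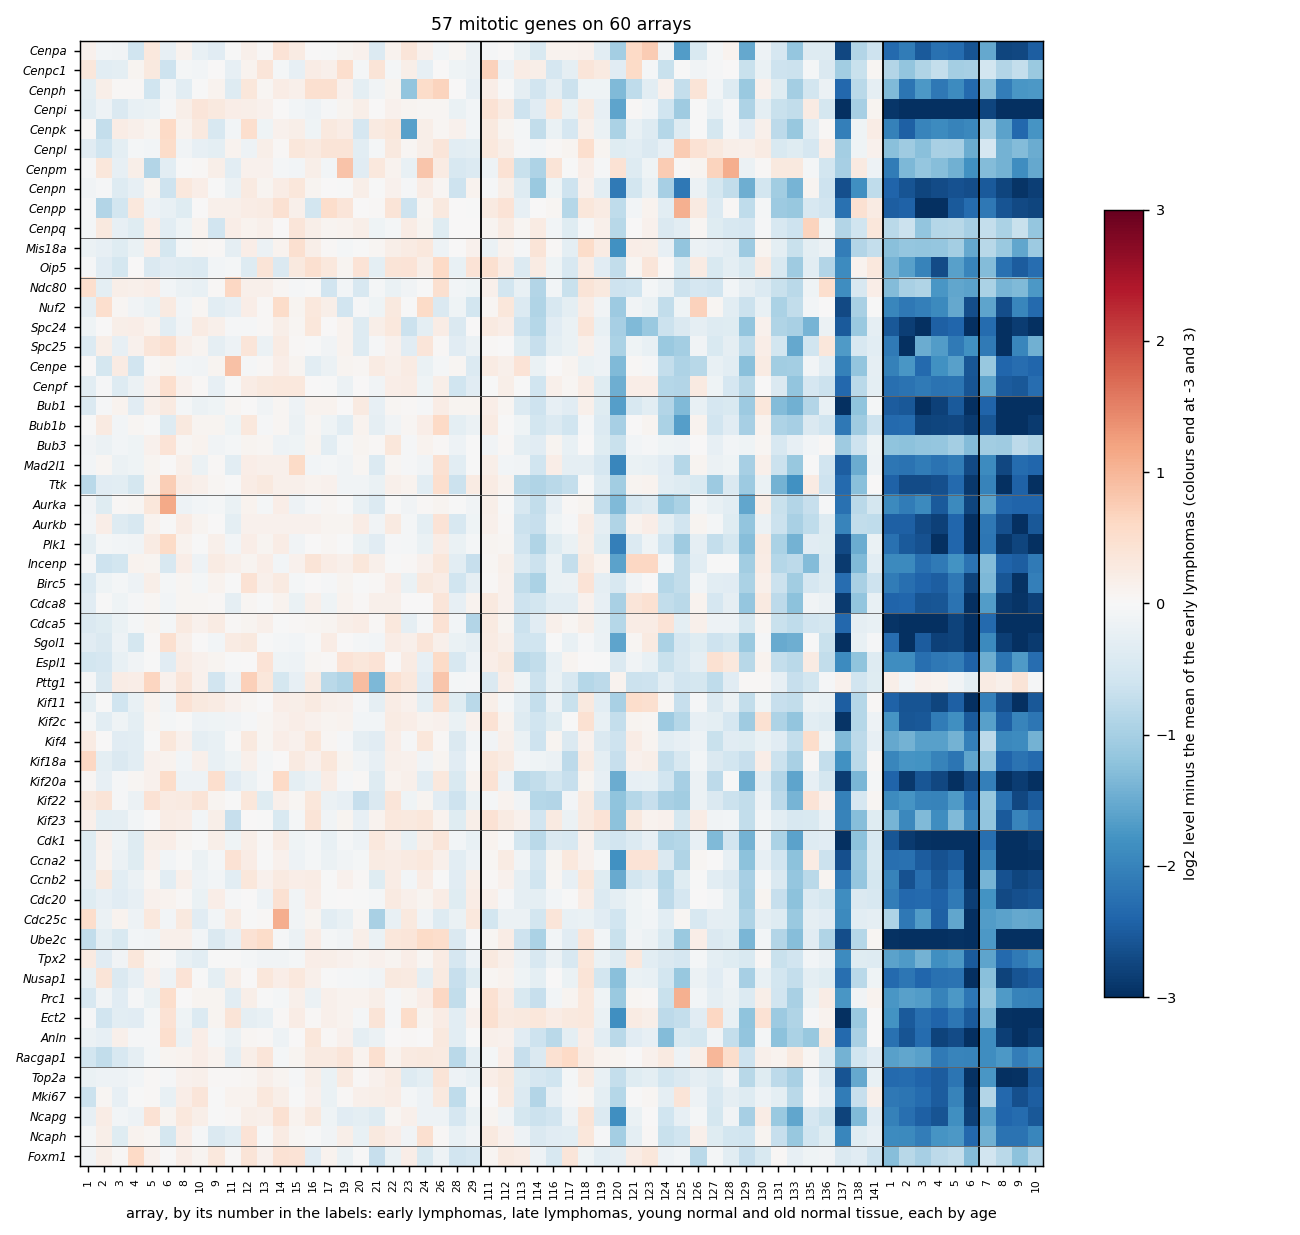
Level of each of the 57 genes on each of the 60 arrays, as the difference from the mean of the early lymphomas on the log2 scale, with genes grouped by role and arrays ordered by age within each group. Normal tissue is blue for all genes but Pttg1, and late lymphoma 137 is blue over nearly its whole column.

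Late lymphoma 137 (567 days) stood closest to normal tissue. Its median over the 57 genes was 8.87, inside the normal range, 55 genes lay below every early lymphoma, and 5 genes (Cenpm, Bub1b, Aurkb, Racgap1 and Foxm1) lay above every normal tissue. It was the lowest late tumour for 55 of the 57 genes, all but Pttg1 and Foxm1. Cdk1 stood at 8.98 there and Cenpi at 5.17. Its plasma cell list stood at 13.18 and its neutrophil list at 12.46, where the other late tumours had neutrophil levels of 6.00 to 10.18, and 14.75 in late lymphoma 136, which had 16 genes below every early tumour. It also had the highest stroma and endothelium level of the 50 lymphomas (10.62) and a T cell level of 9.59, where the late median was 8.14. Of the 6 erythroid markers listed only 1, Epor, passed the filter, and it stood highest of the late tumours there (9.23). Hba-a1, Klf1 and Alas2, which did not pass, were highest in other late lymphomas (121, 131 and 141). Without late lymphoma 137 the count of genes called lower in late tumours was 38 (median -0.34). The part of its cell content in its low mitotic levels was not tested.

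**Figure D4:**
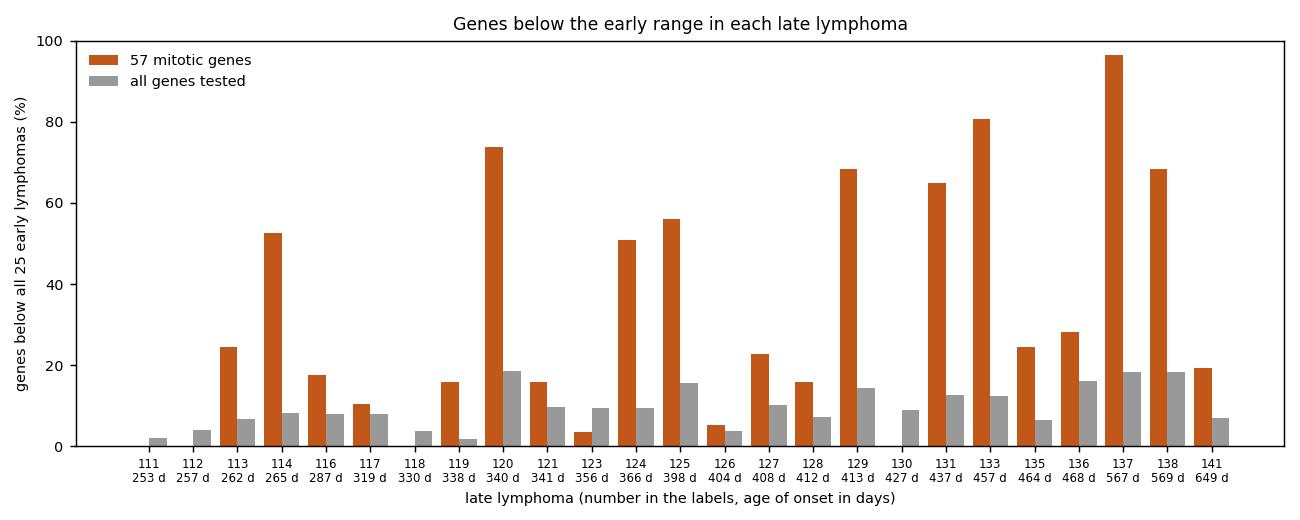
Percent of the 57 mitotic genes (orange) and of all 12600 genes tested (grey) that lay below all 25 early lymphomas, in each late lymphoma, ordered by age of onset. The mitotic share runs from 0 in 4 tumours to 96.5% (55 genes) in late lymphoma 137, while the share of all genes runs from 1.88% to 18.5%.

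The spread between tumours was larger in late lymphomas. The SD over late tumours was 2.12 times that over early tumours at the median of the 57 genes, against 1.35 times for all genes. It was larger in late tumours for 55 of 57 genes (96.5%, against 79.9% of all genes) and more than 2 times as large for 33 (57.9%, against 16.3%). The ratio was highest for Cenpi (0.947 against 0.192, 4.94 times), Kif2c (4.72 times) and Cdca8 (4.55 times). Without late lymphoma 137 the median ratio was 1.68 (all genes 1.33), it was above 2 for 19 genes (33.3%, against 14.8%), and Cenpi stood at 2.67, Kif2c at 3.28 and Cdca8 at 3.26. Pttg1 (0.316 against 0.56) and Foxm1 (0.318 against 0.328) had the smaller SD in late tumours. Pearson's r of each gene with the median of the other genes was 0.87 at the median over genes in the 25 late tumours and 0.35 in the 25 early ones, and 0.77 in late tumours without lymphoma 137. In late tumours 42 genes had an r above 0.8, and Pttg1 (-0.31), Cenpm (0.21) and Foxm1 (0.32) had the lowest values. Without lymphoma 137 the r of 24 genes was above 0.8, and r was not taken for other genes. These are descriptions over arrays that share RNA quality and cell content, and the difference in r was not tested.

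**Figure D5:**
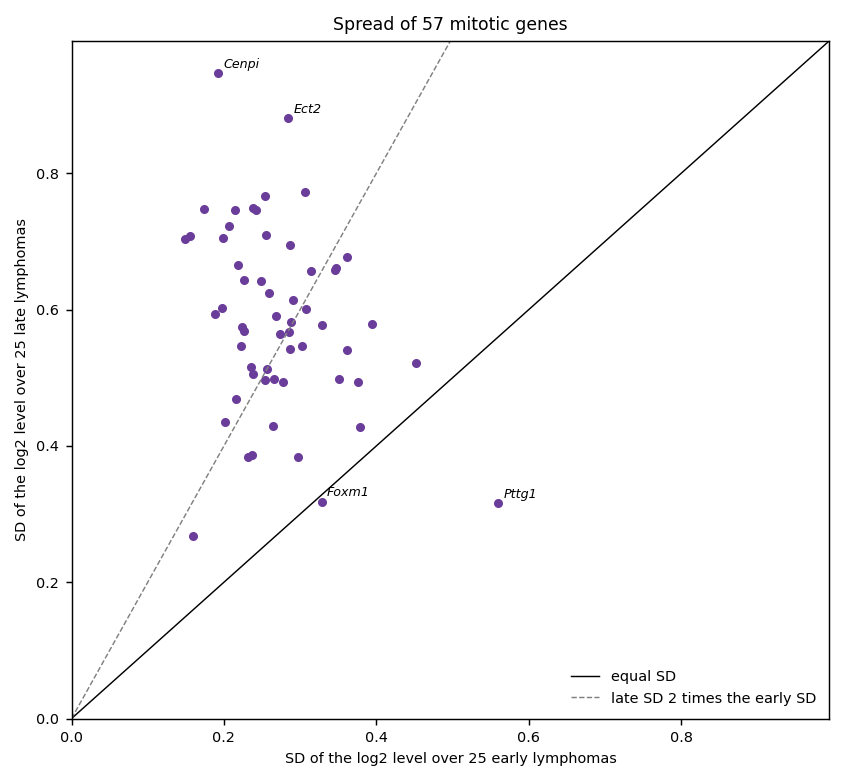
SD of the log2 level over 25 late lymphomas against that over 25 early lymphomas, 1 point for each of the 57 genes, with lines at equal SD and at 2 times the early SD. Cenpi and Ect2 stand highest, and Pttg1 and Foxm1 lie below the line of equal SD.

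In normal tissue 0 of the 57 genes were called between ages in the full set, and leaving out the spleen moved the result. Old against young tissue called 0 of 57 genes with limma (1 at an unadjusted p under 0.05), with a median log2 change of -0.01, while 1.08% of all genes were called higher and 0.548% lower. Of all 27094 probe sets 4448 passed an unadjusted p under 0.05, in either direction. The spleen, the only one, held the highest normal level of 45 genes, and the lymph node of 73 days held the lowest of 29. Tissue and age cannot be told apart in the spleen. Ect2 stood at 9.53 in the spleen and at 7.94, 7.68 and 7.91 in the old lymph nodes, against 8.38 to 9.11 in the young ones. Without the spleen Ect2 was called lower in old nodes (-0.78), when 0.516% of all genes were. The median was then -0.21 (0.007 for all genes), and 47 of the 57 changes were below 0, against 30 with the spleen. There 12 genes passed an unadjusted p under 0.05, and the share of all probe sets doing so was not taken. The difference between the onset contrast in tumours and the age contrast in normal tissue called 0 of 57 genes (7 at an unadjusted p under 0.05, smallest adjusted p 0.561). Its median was -0.42, and -0.18 without the spleen, and 0.0317% of all genes were called higher and 0% lower. Of all 27094 probe sets 1884 passed an unadjusted p under 0.05 in this contrast.

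Within each tumour group levels were set against the age of onset, as a log2 change per doubling of age. Among early lymphomas Ube2c (0.68 ± 0.19, adjusted p = 0.0275) and Racgap1 (0.66 ± 0.20, adjusted p = 0.0397) rose with age, and the other 55 genes were not called (median 0.14, with 2.05% of all genes called higher and 7.25% lower). Centring each array on its median gave 36 genes higher and moved the median slope of all genes from -0.06 to 0.37. Of all 12600 genes 3838 were then called higher and 236 lower. The youngest early lymphomas, 1 and 2 (32 and 42 days), had array medians of 205.7 and 204.7, where the median of the early group was 146.3. The part of these arrays in the slope was not tested. With the RNA ratios as covariates limma called 0 genes, Ube2c and Racgap1 included, and 14 passed an unadjusted p under 0.05. Without the ratios 15 of the 57 genes did, and so did 6947 of all 27094 probe sets. Among late lymphomas limma called 0 genes (0% of all genes were called higher and 0.0159% lower). Of all 27094 probe sets 5839 passed an unadjusted p under 0.05, in either direction. Of the 57 genes 35 passed it, and 55 slopes were below 0, with a median of -0.68. Without late lymphoma 137 the median was -0.37 and 11 genes passed an unadjusted p under 0.05. Without late lymphoma 120 limma called 3 genes lower, when 0.937% of all genes were. Without the 5 tumours of highest plasma cell level the median was -0.29 and 6 genes passed an unadjusted p under 0.05. In the slope fits that left out tumours or held the ratios, the share of all probe sets passing an unadjusted p was not taken.

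A second list held 100 other mitotic genes, of which 94 were tested. Its counts stand beside 30.1% of all genes called higher and 38.8% lower in early tumours, 24.7% and 30% in late tumours, and 11.1% and 12.7% between late and early. In early lymphomas 79 were called higher and 7 lower than in normal tissue, with a median log2 change of 0.94, and in late lymphomas 69 were higher and 7 lower (median 0.77). Late against early tumours gave 45 lower and 1 higher (median -0.25). Cell cycle kinases and regulators rose in 16 of 16 cases in early tumours, led by Pbk (2.87 ± 0.09), and Pbk also fell most in late tumours in that list (-0.64 ± 0.14). Other kinetochore genes rose in 15 of 17 cases, led by Cenpw (2.63 ± 0.14), while Nsl1 of the Mis12 complex fell by 0.39 ± 0.13. Trip13, the ATPase that remodels Mad2, led the other checkpoint genes with 3.00 ± 0.09 (3 of 4 higher). Condensin subunits rose in 6 of 6 cases (Ncapd2 2.41 ± 0.10). The APC/C core and its regulators rose in 13 of 15 cases by less (median 0.76), led by the inhibitor Fbxo5 (2.03 ± 0.12). Spindle and centrosome genes rose in 13 of 16 cases, led by Hmmr (2.19 ± 0.11), while Numa1 fell by 0.55 ± 0.07. Of the cohesin genes 8 of 12 were higher and 3 lower in early tumours, the latter a smaller share than among all genes. Esco2, an acetyltransferase of S phase cohesion, rose by 2.55 ± 0.15, while its relative Esco1 fell by 1.01 ± 0.13 and the cohesin release factor Wapl fell by 0.70 ± 0.14. Wapl was also the gene called higher in late than in early tumours (0.70 ± 0.14), and Esco2 fell most there (-0.76 ± 0.20). Of the other kinesins 4 of 7 were higher, led by Kif20b (2.28 ± 0.13), and the transport kinesin Kif3b fell by 0.87 ± 0.08. The cyclin Ccnf rose by 2.59 ± 0.14 and fell by 0.65 ± 0.12 from early to late tumours.

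Other probe sets of the same genes bore on the choice of 1 per gene. Of 61 further probe sets for 36 of the genes 52 were tested. In early tumours 45 were called higher and 2 lower, 1 each of Pttg1 and Tpx2, and 49 had the sign of the chosen probe set. Late against early tumours 27 were called lower and 25 were not called, and 48 had the same sign.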

How the data were processed

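The authors deposited intensities on a linear scale for 45101 probe sets on 60 arrays, and per the submitters' processing notes the tool was MAS5 (no version named). RNA came from snap-frozen tissue per the labels' protocols. With 2% of probe sets trimmed at either end, the mean of each array was 500, so arrays had been scaled to a common level. Detection calls were not used here. Array number, not read depth, limits the precision.

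Gene names came from the platform annotation (34958 probe sets name 1 gene, 932 several and 9211 none). The 64 control probe sets were left out. Tests used log2(intensity + 15.7), the pseudocount being the table median (157) divided by 10, on 27094 probe sets above their array's median on at least 10 arrays. The log2 scale understates changes of dim genes. Each comparison held only its own groups in limma 3.58.1 (R 4.3.3, lmFit, eBayes with trend), two-sided, with Benjamini-Hochberg adjustment, and all 4 groups for the contrast of contrasts. The code was tested on simulated data. Shares of all genes use 1 probe set per gene. RNA ratios were compared by a permutation test with 100000 resamples. Plots used matplotlib 3.10.9, and tables pandas 2.3.3 on Python 3.11.15.

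The members and lists were chosen with earlier results of these data known, and so were the late lymphomas left out for plasma cell or B lineage levels. All members could be named. Full levels were given for 30 members listed by name (Hjurp and Ccnb1 not analysed), for the largest and smallest late against early change per role and for all members not called there; values were given for the largest called rise and fall of each other list. Alternatives covered the pseudocount, filter, scaling, RNA ratios, probe set choice, samples in the fit, normal tissue used, a replicate block and leaving out samples; 5 were added after seeing the data (the Gapdh or beta-actin ratio alone, leaving out 5 late lymphomas with the ratios or in the slope, and the SDs without late lymphoma 137).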

Additional observations from a re-analysis of the deposited data

Results flagged for a closer look

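Among the normal tissues, 114 sets of levels (57 genes in 6 young and in 4 old samples) were searched for 1 sample set far from the rest by Dixon's criterion. Chance gives about 1 in 20 for independent sets, but genes read on the same arrays are not independent. The search found 16 sets, a number that cannot be set against that chance. The spleen, old normal tissue 7, was the highest of 4 in 10 of them: Cenpe at 8.95, Aurka at 9.26, Cdca8 at 11.08, Kif18a at 8.05, Ccna2 at 10.51, Ccnb2 at 10.27, Cdc20 at 11.00, Ube2c at 10.95, Ect2 at 9.53 and Mki67 at 12.48. The lymph node of 73 days, young normal tissue 6, was the lowest of 6 in Cenpf (8.76), Mad2l1 (9.26), Kif4 (8.10) and Nusap1 (8.76). Young normal tissue 2 was the lowest in Cenpk (7.57) and Spc25 (6.81). The lymphoma groups hold 25 samples each and were not searched.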

How the results depend on the processing

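Against normal tissue the count of 56 higher genes was 56 in early and 55 to 56 in late lymphomas under the alternatives run. The 1 gene lower in late lymphomas, Pttg1, became 0 after centring on the median, and its change in early lymphomas turned to 0.27 after centring and 0.0141 against young tissue alone. The count of 43 lower in late against early tumours became 8 with both RNA ratios as covariates, 19 without the 5 late lymphomas of highest plasma cell genes, 7 with the Gapdh ratio alone and 10 with those 5 left out and both ratios as covariates; it was 33 to 45 under the others, and 36 to 45 when 1 lymphoma was left out. Old against young tissue had 1 gene lower in lymph nodes only, and 0 to 1 with 1 tissue left out. The slope in early lymphomas had 4 higher without a filter, 36 after centring and 0 with the ratios (limma, 14 at an unadjusted p under 0.05); that in late lymphomas had 0 to 3 lower with 1 tumour left out. The causes were not tested. The title numbers are shared by 9 early lymphomas and normal tissues, whose deviations correlated at -0.109 to 0.0843, so they do not pair samples; with a replicate block the count was 56 higher. The median ratio of SDs, 2.12, was 1.68 without late lymphoma 137 (added after seeing the data). Of the named genes, 84 gene-by-setting results lost and 2 gained their call between late and early tumours, a further 48 and 6 did so in fits leaving out 1 lymphoma, and 2 lost it between late tumours and normal tissue. Genes that are dim in normal tissue, such as Cdc25c, have smaller changes on this scale, and Kif15 did not pass the filter.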
